A study of Mus musculus with 5 samples.

Results

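The genes described here are Trp53, which encodes the tumour suppressor p53, and 7 genes that p53 is known to activate: Cdkn1a, Mdm2, Ccng1, Sesn2, Plk2, Btg2 and Gdf15. Members were the probes that the platform's annotation names with 1 of these 8 symbols, read on all 5 arrays of the deposited value table. The annotation gave 7 such probes among 22871, 1 for each of the 7 target genes, and Trp53 itself was not analysed here. Gene symbols covered 16032 genes in all. Every member had a value on every array, and 6 of the 7 passed the filter on dim probes. Gdf15 did not.

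p53 is held at a low level in unstressed cells by Mdm2, a ubiquitin ligase that marks it for destruction. When DNA damage or other stress frees it, p53 binds a DNA element made of a pair of similar 10-base motifs (decamers) and switches on genes that stop the cell cycle, repair DNA, adjust metabolism or start apoptosis, and Mdm2 among them, which closes a feedback loop. The kinase Akt is known to phosphorylate both Mdm2 and the Cdkn1a product p21, and mouse embryonic stem (ES) cells are known for a short G1 phase with little p21.

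The question behind the series is whether active Akt turns mouse ES cells into cells resembling primordial germ cells. All 5 arrays came from male strain 129 cells derived from E14tg2a, a feeder-free ES cell line, and all carried myr-Akt-Mer, a membrane-tethered Akt fused to a modified estrogen receptor that 4-hydroxytamoxifen (4OHT) switches on. Akt-spheres, colonies that arose and grew over OP9 stroma in 1 µM 4OHT and were freed of OP9 cells by plating, gave 1 array from line 42 and 1 from line 21. Reverted ES-like cells, obtained from line 21 spheres through transient 4OHT on embryonic fibroblast feeders, gave 1 array. Line 21 ES cells with 1 µM 4OHT and line 21 ES cells without it gave 1 array each. Lines 21 and 42 each stand for 1 transgenic line, neither line 42 ES cells nor cells lacking the transgene were analysed here, and a member's level in unmodified ES cells cannot be given.

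The sequence before the annotated start of each gene was searched for the p53 decamer motif, because p53 binds direct targets at such elements. Elements farther from the start were not searched for, so a gene without a match may still be a direct target. Sequences are from RefSeq (GRCm38.p6), cover the 250 bases before each start, and were found for all 8 genes (10 starts). The decamer reads the same on both strands. It occurred before 4 of the 10 starts (a start of 4 of the 8 genes), and before 7.13% of all 32851 starts in the table. In the lines that follow, capitals mark the match and 15 bases stand on each side of it.
Cdkn1a, chr17:29090913-29090952, plus strand: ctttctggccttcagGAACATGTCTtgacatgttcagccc
Mdm2, chr10:117710920-117710959, minus strand: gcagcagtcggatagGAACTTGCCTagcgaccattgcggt
Ccng1, chr11:40755447-40755486, minus strand: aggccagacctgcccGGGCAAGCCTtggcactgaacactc
Trp53, chr11:69580269-69580308, plus strand: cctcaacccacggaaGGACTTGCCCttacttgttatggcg

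Cdkn1a was the only member with 2 decamers up to 13 bases apart, an arrangement found before 0.0639% of all starts. They began 73 and 51 bases before the first of its 2 annotated starts, with 12 bases between them. That start lies 2790 bases upstream of the other, which had no match. Only exact matches were counted. The 10 bases directly after the second decamer differ from the motif at their first base alone and stay in lower case. Which of these stretches p53 binds was not tested. The whole 250 bases are shown because Cdkn1a had the widest range of levels among the members, with both decamers in capitals.
Cdkn1a, chr17:29090729-29090978, plus strand: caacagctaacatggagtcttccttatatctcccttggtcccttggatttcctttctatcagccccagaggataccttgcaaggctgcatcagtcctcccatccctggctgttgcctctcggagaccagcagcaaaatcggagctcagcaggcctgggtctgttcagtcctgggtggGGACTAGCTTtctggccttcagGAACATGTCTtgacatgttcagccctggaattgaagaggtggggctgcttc

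TGATGNAA, the motif bound by the stress factors ATF4 and CHOP with their partners, was searched on both strands in the same windows. It was in 0 of the 10 member windows and in 3.45% of all windows. The TATA motif TATAAA and the GC box GGGCGG, also read on both strands, were before 12.4% and 32.7% of all starts. A match or its absence describes these letters only.

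Intensities are linear 1-colour values as deposited, and the median of the listed probes was 50 on each array. On each array 6.09% to 9.11% of probes held no value. For differences, values were taken to log2(value + 1), so a fold difference of a dim gene is understated. The median of every array (probes listed on all 5) was then set to the mean of the 5 medians. Only the spheres have 2 arrays, 1 per line, so line and replicate cannot be told apart. Nothing in the labels says that arrays came from separate cultures. The p-values reflect spread between arrays alone, and that spread may be technical. Where reverted cells and ES cells with and without 4OHT form 1 group, it also holds the differences between these conditions. In these bulk samples, fewer cells that transcribe a gene and less RNA per cell cannot be told apart. The labelled cell types were checked against marker genes. All 10 pluripotency markers had a value on every array, and their summed intensity was 15906 and 11109.5 in line 42 and line 21 spheres, 87069.9 in reverted cells, 90555 in ES cells with 4OHT and 102486 in ES cells without it. Dppa5a alone read 58362 in ES cells without 4OHT. Above the filter's threshold, the 40th percentile of the array, were 7 of the 10 in line 42 and 6 in line 21 spheres. Esrrb (13.1 and 7.96), Tbx3 (15.9 and 14.2) and Fgf4 (7.66 and 18.3) lay below it on both sphere arrays. They passed the filter only through the other arrays. At least 2-fold lower in both sphere arrays than the mean of the other arrays were 8 of the 10, these included (5.21% of all genes). Nanog (4003 and 5523 in spheres, against 4538, 3839 and 5480) and Sall4 (35.0 and 41.2, against 44.9, 34.5 and 47.1) were not. The 10 germ cell markers summed to 14697 and 6184 in line 42 and line 21 spheres. They summed to 8319.8 in reverted cells, 4908 in ES cells with 4OHT and 6086 in ES cells without it. Above the filter's threshold were 9 of the 10 on each sphere array and also 9 in ES cells with 4OHT. In reverted cells 8 were above it, and in ES cells without 4OHT 10. Dppa3 alone read 9198 in line 42 and 223 in line 21 spheres. The other 9 summed to 5499 and 5961 in line 42 and line 21 spheres, against 6694 in reverted cells, 4736 in ES cells with 4OHT and 5652 in ES cells without it.

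Cdkn1a encodes p21, the cyclin-dependent kinase inhibitor through which p53 arrests the cell cycle in G1 (gene at 29090979-29100722 of chromosome 17). Its probe read 1701 in line 42 spheres and 981 in line 21 spheres, against 863 in reverted cells, 692 in ES cells with 4OHT and 199 in ES cells without 4OHT. Both sphere arrays lay above all ES-type arrays, and ES cells without 4OHT stood apart at the bottom. Between neighbours in this order, only the step between the ES cells with and without 4OHT (1.66 on the log2 scale) was larger than the difference between the sphere arrays (0.74).

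Btg2, an antiproliferative protein that recruits an mRNA deadenylase, followed a similar order (134074865-134079155 of chromosome 1). It read 189.95 in line 42 spheres and 187 in line 21 spheres, against 164 in reverted cells, 152 in ES cells with 4OHT and 69.0 in ES cells without 4OHT. The sphere arrays nearly coincided, with a log2 difference of -0.03 between line 42 and line 21 whose sign turned (0.02) without centring. Over the 5 arrays, Pearson's r between the log2 values of Btg2 and Cdkn1a was 0.96, the highest among the pairs of members.

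Plk2, a polo-like kinase tied to centriole duplication and recovery from stress, ran the other way in spheres (110395044-110400844 of chromosome 13). It read 208 in line 42 spheres and 344.5 in line 21 spheres, against 719.98 in reverted cells, 874 in ES cells with 4OHT and 385 in ES cells without 4OHT. Both sphere arrays lay below every ES-type array, the line 21 spheres by a small step of 0.21 on the log2 scale from ES cells without 4OHT. Its r with Cdkn1a over the 5 arrays was -0.34.

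Mdm2, the ubiquitin ligase of the feedback loop, was highest in ES cells with 4OHT (117688875-117710758 of chromosome 10). The values were 1476 in line 42 spheres, 1106 in line 21 spheres, 1524 in reverted cells, 2985 in ES cells with 4OHT and 1201 in ES cells without 4OHT. The other 4 arrays lay close together, and each step between them was smaller than the sphere difference of 0.36 on the log2 scale, while the step down from ES cells with 4OHT was 0.93.

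Ccng1 encodes cyclin G1, an atypical cyclin that binds Mdm2 and a phosphatase (40748552-40755309 of chromosome 11). It read 1709.8 in line 42 spheres, 2224 in line 21 spheres, 2106 in reverted cells, 2971 in ES cells with 4OHT and 1431 in ES cells without 4OHT. ES cells with 4OHT were again highest and those without 4OHT lowest, but each step between neighbours was smaller than the sphere difference of 0.43 on the log2 scale.

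Sesn2 encodes sestrin 2, a leucine sensor that restrains the growth kinase mTORC1 and is also a known target of ATF4 (132492804-132510456 of chromosome 4). It read 1770.6 in line 42 spheres and 699.6 in line 21 spheres, against 2137 in reverted cells, 1430.2 in ES cells with 4OHT and 1447 in ES cells without 4OHT. The line 21 spheres were the low array, and the sphere arrays differed by 1.29 on the log2 scale, more than any step between neighbours. Gdf15, a secreted stress cytokine (70629393-70632470 of chromosome 8), read 22.7 and 15.99 in line 42 and line 21 spheres, 20.8 in reverted cells, 21.6 in ES cells with 4OHT and 17.3 in ES cells without 4OHT. All of these lay below the 40th percentile of their arrays (28.6 to 29.3), so Gdf15 entered no comparison.

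**Figure D1:**
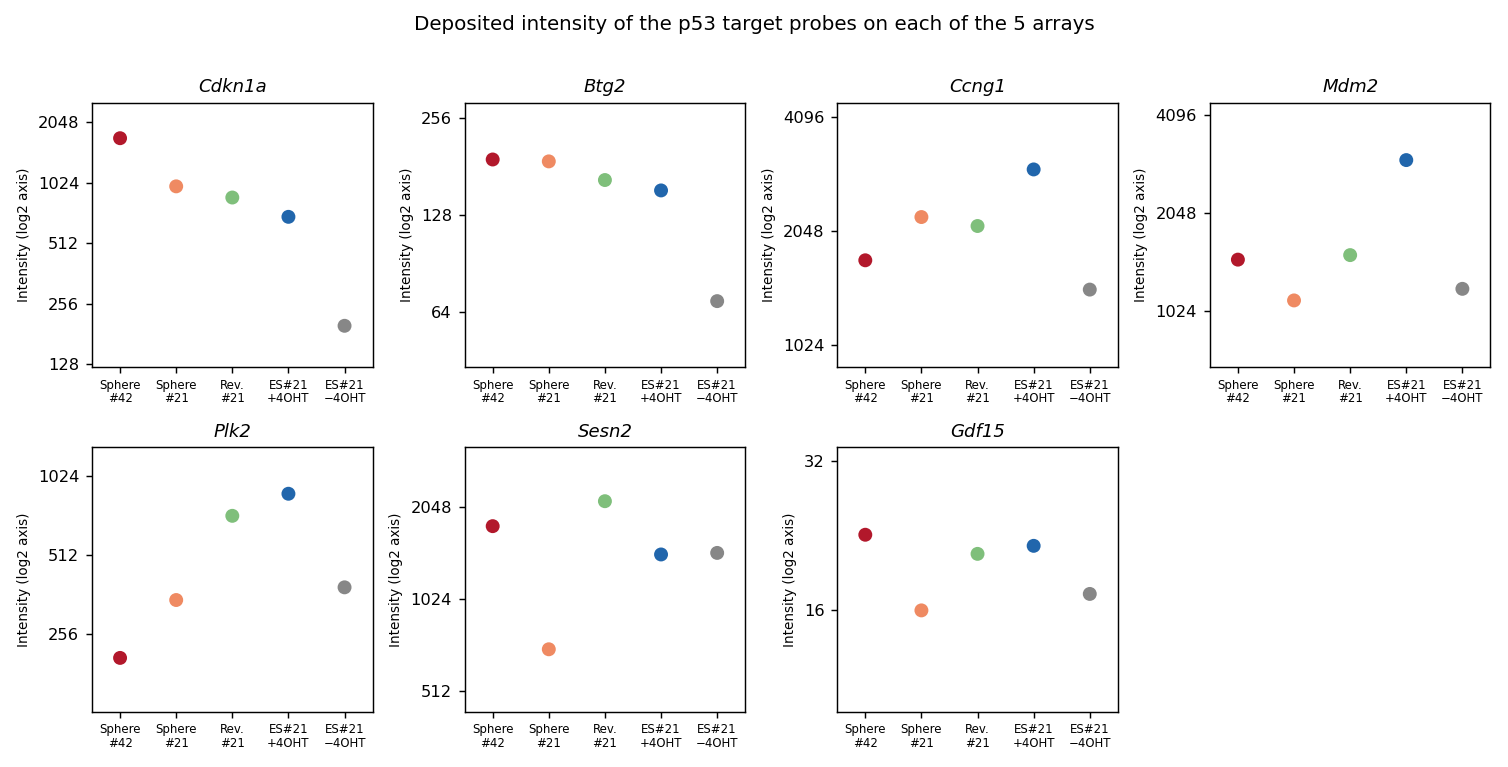
Deposited intensity (linear units on a log2 axis) of the 7 p53 target probes on the 5 arrays: spheres of lines 42 and 21, reverted cells (Rev.), and ES cells with and without 4OHT, 1 point per array. Cdkn1a and Btg2 were lowest in ES cells without 4OHT (199 and 69.0), Mdm2 was highest in ES cells with 4OHT (2985), and Gdf15 stayed between 15.99 and 22.7.

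ES cells with 4OHT were compared with ES cells without it to see the members under 4OHT without sphere formation. As no cells lacking the transgene were analysed, an effect of the kinase and one of 4OHT itself cannot be told apart. On each side stands 1 array, so there is no replicate check and no test. Cdkn1a was 3.15-fold higher with 4OHT (692 against 199), Mdm2 2.26-fold (2985 against 1201) and Plk2 2.06-fold (874 against 385). Btg2 (1.99-fold) and Ccng1 (1.89-fold) lay just short of 2-fold, and Sesn2 was nearly level (log2 -0.15). The members' median log2 difference was 1.02, against -0.03 over the 9852 genes compared. At least 2-fold higher were 3 of the 6 members, where the share over all genes was 2.56%, and 0 were at least 2-fold lower, where it was 2.4% (4.95% in either direction). Larger log2 differences than that of Cdkn1a were seen in 0.508% of genes, than that of Mdm2 in 1.57% and than that of Ccng1 in 3.07%.

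The count depends on the centring, which moved the array of ES cells with 4OHT by -0.06 and that without 4OHT by 0.08 on the log2 scale. Without centring 5 of the 6 members were at least 2-fold higher, and the median of all genes was 0.11. Of all 2-fold differences, 51.6% were on the higher side with centring, 68.6% without it and 66.8% under quantile normalization. The count also differs with the array compared against. Set against reverted cells, an alternative chosen after seeing the data, ES cells with 4OHT had 0 of 6 members at least 2-fold higher: Mdm2 was at 0.93 and Cdkn1a at -0.36 on the log2 scale. ES cells without 4OHT gave the lowest of the 5 values for 3 of the 6 members and for 21.2% of all genes. ES cells with 4OHT gave the highest for 3 members and for 23.5% of all genes.

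**Figure D2:**
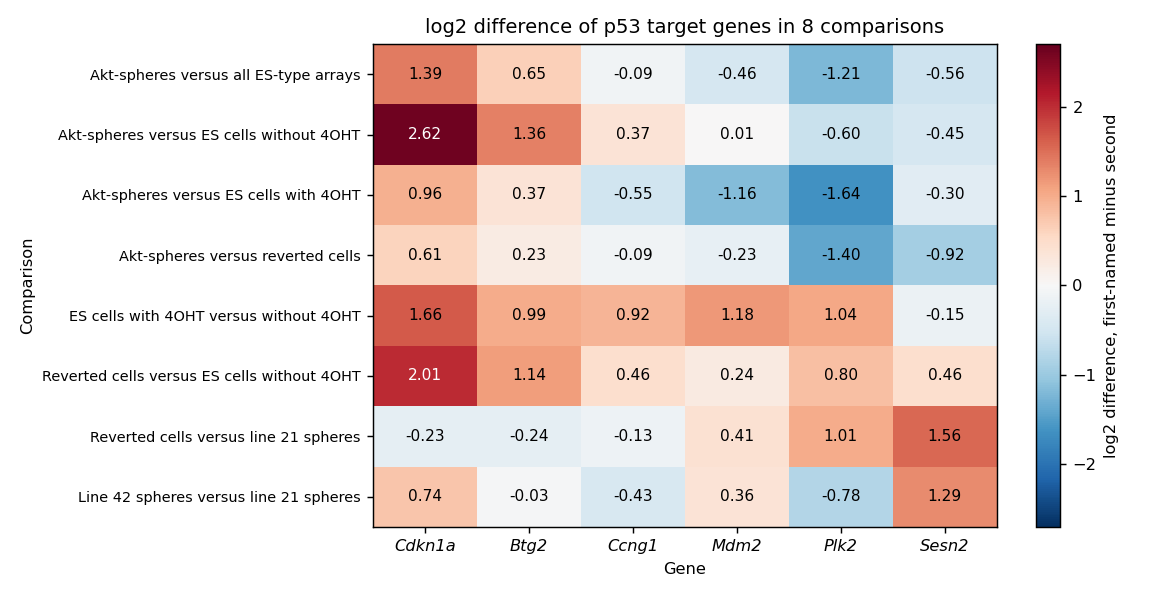
Heat map of the log2 difference (first-named minus second, printed in each cell) of the 6 members above the filter in the 8 comparisons. The row of ES cells with against without 4OHT holds 5 values between 0.92 and 1.66 and Sesn2 at -0.15, and the Cdkn1a column is highest for spheres against ES cells without 4OHT (2.62). The comparisons share arrays.

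The 2 sphere arrays were then set against the 3 ES-type arrays, the only comparison with more than 1 array on both sides. The 3 ES-type arrays are 3 conditions, so the SE, intervals and p-values here also carry the differences between them. Cdkn1a was 2.63-fold higher in spheres (log2 1.39, SE 0.63, 95% interval -0.16 to 2.95, limma adjusted p = 0.306). Plk2 was 2.32-fold lower (log2 -1.21, SE 0.41, 95% interval -2.22 to -0.21, limma adjusted p = 0.192). For Btg2 the spheres were above by 0.65 on the log2 scale, or 1.57-fold (SE 0.39, limma adjusted p = 0.426). The groups did not overlap for these 3 of 6 members, a pattern seen in 36.7% of the 10589 genes tested (18.5% higher and 18.2% lower). Sesn2 (log2 -0.56), Mdm2 (-0.46) and Ccng1 (-0.09) overlapped between the groups.

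limma called 0 of the 6 members at an adjusted p of 0.05, with adjusted p-values of 0.192 to 0.922 and 1, Plk2, at an unadjusted p under 0.05 (0.0257). Over all genes it called 2.44% (102 or 0.963% higher and 156 or 1.47% lower), and 2002 genes had an unadjusted p under 0.05. The members' median log2 difference was -0.27, against 0.00 over all genes. At least 2-fold higher in both sphere arrays was 1 member, Cdkn1a, where the share over all genes was 3.83%, and 0 were lower, where it was 5.21% (9.05% in either direction). When the ES cells without 4OHT were left out, the log2 difference of Cdkn1a was 0.78 and that of Btg2 0.30, and limma called 0 genes in all.

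**Figure D3:**
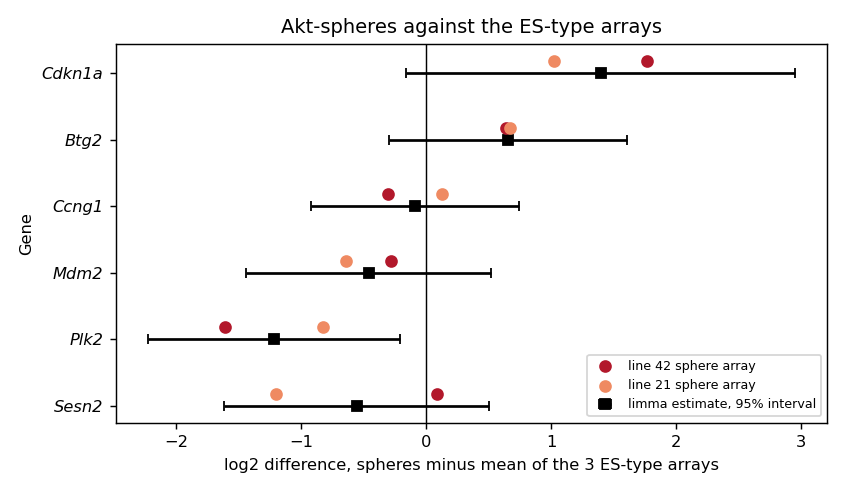
log2 difference between Akt-spheres and the mean of the 3 ES-type arrays for the 6 members above the filter. Squares and bars are limma's estimates with 95% intervals, and points are the line 42 and line 21 sphere arrays; the interval of Plk2 (-2.22 to -0.21) leaves out 0 before adjustment, and those of the other 5 members include it.

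Against ES cells without 4OHT alone, Cdkn1a was 6.13-fold higher in spheres, by 2.99 in line 42 and 2.25 in line 21 on the log2 scale (limma adjusted p = 0.306). Btg2 was 2.57-fold higher, by 1.35 and 1.38 (limma adjusted p = 0.435). These 2 members were at least 2-fold higher in both sphere arrays, where the share over all 10283 genes was 4.51%, and 0 were 2-fold lower, where it was 6.01%. Mdm2 was level (log2 0.01). limma was fitted over 4 groups here, which leaves 1 residual degree of freedom, and takes the spread of the spheres for the lone arrays too. It called 0 genes at an adjusted p of 0.05 (964 at an unadjusted p under 0.05).

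Set against the ES cells given 4OHT, the members lay mostly on the lower side. Plk2 was 3.12-fold lower in spheres (by -2.03 in line 42 and -1.25 in line 21 on the log2 scale, limma adjusted p = 0.373). Mdm2 was 2.24-fold lower (-0.98 and -1.34, limma adjusted p = 0.429), so that line 42 fell just short of 2-fold. Cdkn1a was 1.95-fold higher (1.33 and 0.59, limma adjusted p = 0.585). Of the 6 members, 1 was at least 2-fold lower in both arrays, where the share over all 10407 genes was 6.86%, and 0 were higher, where it was 5.98%. limma called 0 genes (1212 at an unadjusted p under 0.05). The members' median was -0.42, against 0.02 over all genes.

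Against reverted cells, Plk2 was again lower, 2.64-fold (208 and 344.5 in spheres against 719.98, limma adjusted p = 0.561). It was the only member at least 2-fold lower in both arrays, where the share over all 10328 genes was 5.81%, and 0 were higher, where it was 4.21%. limma called 0 genes (920 at an unadjusted p under 0.05). Sesn2 was 1.89-fold lower (-0.27 in line 42 and -1.56 in line 21 on the log2 scale, limma adjusted p = 0.848). Cdkn1a (log2 0.61), Btg2 (0.23), Ccng1 (-0.09) and Mdm2 (-0.23) differed less.

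Reverted cells were compared with the ES cells from which the line started, 1 array each. Cdkn1a was 4.03-fold higher in reverted cells (863 against 199) and Btg2 2.20-fold (164 against 69.0). All 6 members were on the higher side, with a median log2 difference of 0.63 against 0.00 over all genes, and 2 were at least 2-fold higher, where the share over all 9939 genes was 5.18% (6.34% lower). Compared with the line 21 spheres that they came from, reverted cells read 0.23 lower for Cdkn1a on the log2 scale (863 against 981). Sesn2 was 2.95-fold higher in reverted cells (2137 against 699.6) and Plk2 2.01-fold (719.98 against 344.5). These 2 of 6 members compare with 9.41% of 10034 genes on that side (7.58% lower). Between the sphere lines, 1 of 6 members, Sesn2, was at least 2-fold higher in line 42 (2.44-fold, 1770.6 against 699.6), where the share over all 9954 genes was 7.87% (7.81% lower). All of these set single arrays against each other, and the comparisons with ES cells without 4OHT share that array.

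A wider set of 86 genes of the p53 pathway (regulators, and targets in arrest, apoptosis, DNA repair, metabolism, and secretion or cell surface) had 75 genes with a probe. It was chosen with earlier results of these data known. With against without 4OHT, 5 of 63 compared were at least 2-fold higher (2.56% of all genes) and 3 lower (2.4% of all genes), with a median log2 difference of 0.05 against -0.03 over all genes. The highest were Hbegf, an EGF-family growth factor (754 with against 291 without 4OHT), Ddit4, an mTORC1 inhibitor (2209.9 against 868.6), and Plk3, a stress-activated polo-like kinase (245 against 95.9). The lower ones were Bok, a Bcl-2 family member (48.9 against 123), Rgs16, a regulator of G protein signalling (22.5 against 45.8), and Sfn, the 14-3-3 protein that holds cells in G2 (143 against 265). The 14 regulators of p53 compared had 0 at least 2-fold apart. The 10 cell cycle genes that p21 represses through the DREAM complex also had 0, with a median of -0.02. By sublist, the median was -0.03 for 8 arrest targets (1 higher, 2 lower), 0.12 for 17 apoptosis targets (2 higher, 1 lower), -0.08 for 7 DNA repair targets (0 either way), 0.17 for 11 metabolism targets (1 higher) and 0.55 for 6 secreted or surface targets (1 higher). The regulators' median was -0.20, and 13 housekeeping genes had a median of -0.14 and 0 past 2-fold.

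**Figure D4:**
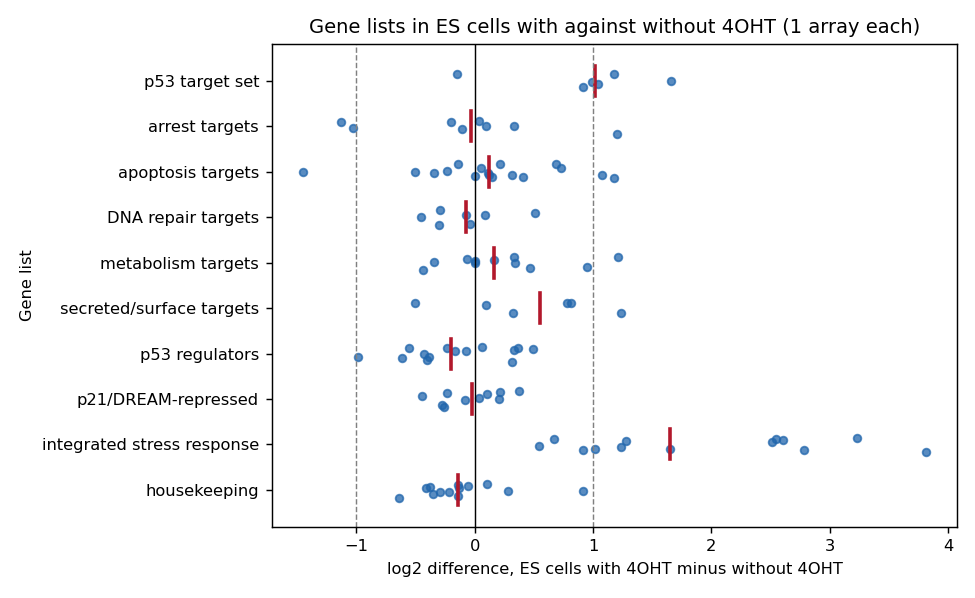
log2 difference between ES cells with and without 4OHT (1 array each) for the genes of 10 lists, 1 point per gene, with the list's median as a red bar and dashed lines at 2-fold. The members' median is 1.02 and that of the integrated stress response genes 1.65, while the other p53 lists lie nearer to 0.

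In spheres against the ES-type arrays, limma called 1 of 65 wider p53 genes higher and 1 lower, and by 2-fold in both sphere arrays 2 were higher and 4 lower. Over all genes the shares were 0.963% higher and 1.47% lower by limma, and 3.83% and 5.21% by 2-fold. Pmaip1, which encodes the apoptosis inducer Noxa, fell in spheres (limma adjusted p = 0.0399). It read 12.2 and 4.72 in line 42 and line 21 spheres, against 78.9 in reverted cells, 309.6 in ES cells with 4OHT and 259.8 in ES cells without it. Both sphere values lay below the 40th percentile of their arrays, so Pmaip1 passed the filter only through the ES-type arrays. With such values raised to that percentile, it was at least 6.22-fold lower in spheres. Cx3cl1, a membrane-bound chemokine, rose in spheres (limma adjusted p = 0.0173), with 106 and 68.5 against 8.83, 10.4 and 4.65. All 3 ES-type values lay below the same threshold, so it entered only through the spheres, and on the same basis it was at least 2.89-fold higher there. Both tests rest on these dim values. Both calls were lost when ES cells without 4OHT were left out (limma adjusted p = 0.162 and 0.0786) and also when ES cells with 4OHT were left out (0.123 and 0.0595). Without the line 42 sphere array they were lost too (limma adjusted p = 0.0751 and 0.0556). The Pmaip1 call was also lost without the line 21 sphere array (0.117) and with a pseudocount of 16 (0.0522). Where arrays were left out, the measured log2 differences ran from -5.00 to -4.08 for Pmaip1 and from 3.05 to 3.51 for Cx3cl1 in the fits that lost both calls, against -4.42 and 3.33 with all arrays.

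Others did not pass the test. Sfn read 102 and 34.8 in line 42 and line 21 spheres, against 905, 143 and 265 in reverted cells and in ES cells with and without 4OHT (limma adjusted p = 0.204). Hbegf read 94.3 and 68.8, against 237, 754 and 291 (limma adjusted p = 0.0910). Rgs16 read 129.9 and 609.8 in line 42 and line 21 spheres, against 100.4, 22.5 and 45.8. Of 8 DNA repair targets, 11 metabolism targets and 10 DREAM-repressed genes, 0 were at least 2-fold apart in both sphere arrays, with medians of 0.20, 0.15 and -0.01. Between the sphere lines, Dcxr, a carbonyl reductase of sugar metabolism, Perp, a desmosome protein that p53 induces in apoptosis, and Igfbp3, a binding protein of insulin-like growth factors, were higher in line 42. Dcxr read 1978 in line 42 against 512 in line 21 spheres. Perp read 1522 in line 42 against 437 in line 21 spheres, and Igfbp3 1000.2 against 289. Lower in line 42 beside Rgs16 were Polk, a translesion DNA polymerase (159.7 against 344), and Ccng2, cyclin G2 (109 against 223).

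**Figure D5:**
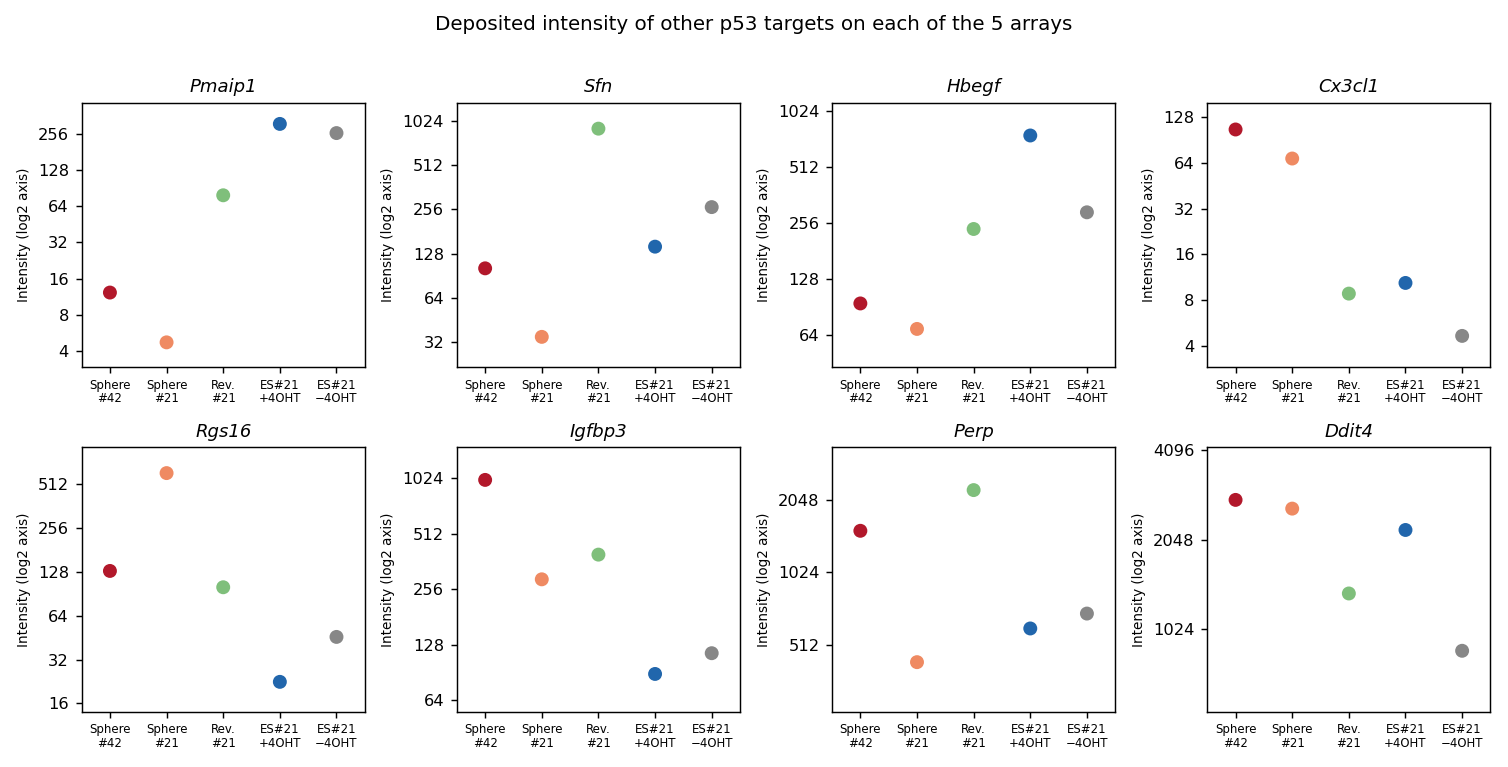
Deposited intensity (linear units on a log2 axis) of 8 other p53 targets on the 5 arrays, 1 point per array. Pmaip1 read 12.2 and 4.72 on the sphere arrays, and Cx3cl1 106 and 68.5, apart from the ES-type arrays in both cases; Perp and Igfbp3 differed between the sphere lines.

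Genes of the integrated stress response, which ATF4 and CHOP drive, moved with the members in ES cells with 4OHT. Of 13 compared, 10 were at least 2-fold higher with than without 4OHT (2.56% of all genes) and 0 lower (2.4% of all genes), with a median log2 difference of 1.65. Their summed intensity over 14 probes was 32245 in ES cells with 4OHT, against 11083 in ES cells without it, and it was 12769 and 11600.0 in line 42 and line 21 spheres and 13956 in reverted cells. Ddit3, which encodes CHOP, read 3073 with and 297 without 4OHT, and Nupr1, a small stress-response chromatin protein, 1467 and 93.8. Sesn2, which ATF4 is known to induce, did not follow (1430.2 and 1447). Of the 10 higher with 4OHT, Atf3 (69.5 with, 10.2 without) and Vldlr (48.1 and 17.9) lay below the filter's threshold without 4OHT. These genes entered that comparison only through the array with 4OHT. Against ES cells with 4OHT, 9 of 13 stress response genes were at least 2-fold lower in both sphere arrays (6.86% of all genes). In the other direction, 1 was higher (5.98% of all genes). That one, Vldlr, a lipoprotein receptor, rose in spheres against all ES-type arrays (255 and 386, against 33.7, 48.1 and 17.9, limma adjusted p = 0.0281). Its call was lost when ES cells without 4OHT were left out, where limma called no gene. Of the 9 lower, Nupr1 (15.9 and 14.4 in line 42 and line 21 spheres) and Atf3 (9.46 and 10.1) lay below the threshold on both sphere arrays. Nupr1 and Atf3 entered only through the ES cells with 4OHT. The part of this response in the members' difference was not tested.

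Markers of OP9 stroma and fibroblasts were checked as another source of RNA. All 12 had a value on each array. They summed to 592 and 769 in line 42 and line 21 spheres, against 1601 in reverted cells, 1423 in ES cells with 4OHT and 1583 in ES cells without it. Thy1, Acta2 and Csf1 made up most of the sum in ES cells without 4OHT (464, 476 and 369). The sum therefore does not measure stromal RNA alone, and its order across the arrays cannot rank them by stroma. The fibroblast collagen gene Col1a1 was above the filter's threshold only in reverted cells (36.0). It read 17.0 and 17.5 in spheres, and 24.4 and 18.6 in ES cells with and without 4OHT. Its partner chain Col1a2 read 42.0 in line 42 and 101 in line 21 spheres, against 102, 53.5 and 49.99. Cxcl12, a chemokine that stroma secretes, read 8.21 in line 42 and 109 in line 21 spheres, against 48.9, 12.4 and 22.7. Thy1 and Acta2, a surface protein and an actin of fibroblasts, fell in spheres against the ES-type arrays (limma adjusted p = 0.0146 for both). Both calls were lost when ES cells without 4OHT were left out, where limma called no gene. Acta2 differed by -2.77 on the log2 scale. Thy1 read 16.1 and 24.8 in spheres, below the threshold, and was at least 10.99-fold lower. It passed the filter only through the ES-type arrays, so its test rests on these dim values. In ES cells with and without 4OHT, Thy1 read 331 and 464 and Acta2 415 and 476. The fall of these genes therefore does not measure stromal RNA. In reverted cells, where Cdkn1a was 4.03-fold above ES cells without 4OHT, 8 of the 12 markers were above the threshold, against 5 in ES cells without 4OHT; the part of feeder cells there was not tested.

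For each member whose log2 values spanned at least 1, the genes with the most similar pattern were found among 5034 genes with as wide a span. Each likeness rests on 5 arrays, 1 per point, and 11 to 51 genes per member had a Pearson's r above 0.95. For Cdkn1a they were Tmem17 (r = 0.994), Vmn1r191 (0.992) and Vrk2 (0.991), with Tmem17 at 299 and 247 in line 42 and line 21 spheres and 129.6 in ES cells without 4OHT. For Btg2 they were Tcn2 (0.999), Cgrrf1 (0.989) and Snrpa (0.986). For Mdm2 they were Anapc16 (0.986), Dyrk4 (0.977) and Atf4 (0.976). Atf4 encodes the stress factor ATF4 and read 6745 in ES cells with 4OHT, against 3028 in ES cells without it and 2357 to 3203 on the other arrays. For Plk2 they were Steap1 (0.989), Creg1 (0.988) and Esrrg (0.987), and for Sesn2 Sec14l2 (0.990), Ppp1r13l (0.988) and Meox1 (0.979).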

How the data were processed

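Total RNA was amplified to amino allyl antisense RNA and hybridised on Toray arrays, per the labels' protocols. The deposited values are linear 1-colour intensity values for 22871 probes. How the scans were read, corrected for background and normalized, and why cells are empty, is not given in the sources used here. A common median of 50 shows that the arrays were scaled; whether more was done to them stays unknown. No gene-wise centring is seen in them. Probes were named through the platform annotation (16264 with 1 symbol, 0 with several), updated through RefSeq's gene table (GRCm38.p6), which also gave the gene coordinates. A gene with several probes took the one with the highest mean; each member had 1.

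Values were taken to log2(value + 1), median-centred per array, and a gene entered a comparison if each array in it held a value and 1 or more reached that array's 40th percentile. Groups with 2 arrays were tested with limma 3.58.1 in R 4.3.3 (lmFit, eBayes, Benjamini-Hochberg over all genes, threshold 0.05) after a test on simulated data. Single arrays were compared by a 2-fold threshold. The number of arrays limits the precision. Members and lists were chosen with earlier results of these data known. Named genes were all members, listed genes past limma's threshold, the 3 largest 2-fold differences each way per comparison, and the 3 most similar genes per member. Alternatives were a pseudocount of 16, no filter or one at the 60th percentile, quantile normalization, no centring and leaving out each array. Where all arrays of a group lay below that percentile, a fold is given as a bound, with their values raised to it. Col1a1, Col1a2, Csf1, Cxcl12, Dppa3, Dppa5a, Esrrb, Fgf4, Nanog, Sall4 and Tbx3 were chosen after their values were seen.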

Additional observations from a re-analysis of the deposited data

Results flagged for a closer look

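Sesn2 was singled out because the sphere lines lay on opposite sides of the same ES cells. Against ES cells without 4OHT its log2 difference was 0.19 in line 42 spheres and -1.10 in line 21 spheres. Against ES cells with 4OHT it was 0.34 in line 42 and -0.94 in line 21. The difference between the lines was not tested, since each has 1 array.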

How the results depend on the processing

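No paired analysis was possible because line 21 alone is in all 4 groups, with 1 array in each, and line 42 has only a sphere array. With a pseudocount of 16, the count of members at least 2-fold higher was 0 for spheres against the ES-type arrays and 1 for reverted cells against line 21 spheres, and 0 were lower for spheres against reverted cells. Without centring, it was 0 higher for spheres against the ES-type arrays, 2 lower for spheres against ES cells with 4OHT, and 5 higher for ES cells with against without 4OHT. In that last comparison, 488 genes were at least 2-fold apart, against 311 with a pseudocount of 16, 752 with no filter, 313 with a filter at the 60th percentile and 1572 against reverted cells, where 0 members were higher and Cdkn1a turned to -0.36. Leaving out each array in turn, limma called 0 to 284 genes for spheres against the ES-type arrays (0 without ES cells without 4OHT, 32 without ES cells with 4OHT, 98 without line 42 and 148 without line 21 spheres), with 0 to 1 members 2-fold higher and 0 to 1 lower. With 1 sphere array alone, genes at least 2-fold apart numbered 1890 to 2266 against ES cells without 4OHT, 2132 to 2702 against ES cells with 4OHT and 1705 to 2284 against reverted cells, a looser rule than both arrays together. Members then numbered 0 to 1 lower against ES cells without 4OHT, 0 to 1 higher and 1 to 2 lower against ES cells with 4OHT, and 1 to 2 lower against reverted cells. The cause of the other changes was not tested. Of 48 log2 differences of members, 1 changed sign under another scaling or pseudocount, that of Btg2 between the sphere lines. Members have 1 probe each, so no other probe could be tried.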
